A study of Mus musculus with 21 samples.

Results

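The genes of the cytosolic ribosomal proteins were followed in CD31-positive cells sorted from mouse mammary tumours. Members were chosen by gene symbol alone: rows named Rpl, Rplp or Rps with a number and at most a short suffix, plus Rpsa, without the pseudogene rows whose names end in -ps. This rule took 89 of the 45706 genes measured, 37 of the small subunit and 52 of the large subunit. By their annotation 84 of the 89 are protein-coding genes, and the other 5 (Rps4l, Rps12l1, Rps12l2, Rps3a2 and Rps3a3) are processed pseudogenes. The rule leaves out Fau and Rack1, which also encode proteins of the ribosome and are given separately.

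The cytosolic ribosome is built from a small subunit, which holds the mRNA and reads its codons, and a large subunit, which joins the amino acids and releases the growing chain through an exit tunnel. Each ribosomal protein is present in about equal number in a ribosome, so cells make their mRNAs together and at high levels. Most of these mRNAs begin with a C followed by a run of pyrimidines, the 5′ terminal oligopyrimidine (TOP) tract, through which mTOR and LARP1 adjust their translation to growth conditions. Dividing and sprouting endothelium, as in a tumour, depends on this machinery for growth.

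E0771.lmb is a mouse mammary carcinoma line. Its tumours were grown in adult wild-type mice (WT) and in Shb iECKO mice (KO), which carry Shb flox/flox and the Cdh5-CreERt2 transgene. In these mice tamoxifen activates a Cre recombinase that is driven by the promoter of an endothelial cadherin gene, and tamoxifen was given before the tumours grew. Shb encodes an adaptor protein of tyrosine kinase receptors. The protocol also names an Shb ICKO line with Vav1-cre, a blood-cell driver, and no sample is assigned to it. Mice were killed between day 14 and day 16. Tumours were digested and passed through a magnetic CD45 step, and CD31-positive cells were then sorted. The study comprises 11 WT libraries from 9 tumours and 10 KO libraries from 8 tumours, in 4 experiments, and the labels do not say which libraries share a tumour. P-values therefore measure the spread between libraries, some of which come from the same tumour. Experiment 1 has 3 WT and 2 KO libraries, experiment 2 has 3 and 4, experiment 3 has 2 and 2, and experiment 4 has 3 and 2.

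Values are TPM, a length-corrected share of each library, from which the depth cannot be read back. Shb ran from 17.2 to 74.3 TPM in WT and from 6.0 to 52.7 TPM in KO, and the groups overlapped. Its medians in experiments 1 and 3 were 44.5 and 26.7 TPM in KO and 34.9 and 25.0 TPM in WT. In experiments 2 and 4 they were lower in KO, 12.7 and 7.0 TPM against 46.1 and 29.3 TPM in WT. A value for the whole gene does not separate the deleted part. A pair of columns share 1 header, and these libraries are called KO replicates 3a and 3b of experiment 2. The decimals of replicate 3b are written like those of experiment 4, so its experiment is uncertain. Pecam1, which encodes CD31, had a median of 1218 TPM in WT and 1352 TPM in KO. It was low in WT replicate 2 of experiment 4 (95.0 TPM), KO replicate 2 of experiment 4 (242 TPM) and WT replicate 1 of experiment 2 (461 TPM). WT replicate 2 of experiment 3 stood apart by its macrophage markers, which summed to 4135 TPM there. Tumour epithelium markers summed to 272 TPM in WT replicate 2 of experiment 4, the highest of all libraries. WT replicate 2 of experiment 3 (141 TPM) and KO replicate 2 of experiment 4 (137 TPM) followed.

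Of the 89 members 84 had at least 1 TPM in at least 10 libraries and were tested, 35 of the small and 49 of the large subunit. Rpl10l and Rps12l2 were listed at 0 in every library. Rpl39l reached at most 5.65 TPM, Rpl3l 7.07 TPM and Rps3a3 3.13 TPM. A median over libraries of at least 100 TPM was reached by 78 members, against 9.66% of all 13503 genes tested, and 73 members lay between 200 and 1000 TPM. The level per length was thus high and fairly even across the family: the median of these medians was 429 TPM for small subunit genes and 475 TPM for large subunit genes.

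Rpl41 had the highest level. It encodes the smallest protein of the ribosome, and its coding sequence is printed whole to show how short it is. It lies at chr10:128548114-128549305 on the minus strand of GRCm38, and the reading frame has 78 bases with its stop codon, 26 codons in all (GENCODE, lower case throughout).
Rpl41: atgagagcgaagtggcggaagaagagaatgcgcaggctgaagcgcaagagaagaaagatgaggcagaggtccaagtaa
Rpl41 ran from 219 to 2339 TPM with a median of 1203 TPM. Rps26, a protein near the mRNA exit of the small subunit, followed with a median of 933 TPM (132 to 2344 TPM). Rps24 and Rps15 of the small subunit had medians of 882 and 876 TPM. Rplp1, an acidic protein of the stalk that recruits elongation factors, had a median of 876 TPM. Rps2, a protein at the entrance of the mRNA channel, had a median of 840 TPM. These 6 ranges overlapped almost wholly, so their order is not separated by the spread between libraries.

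The lowest members were mostly copies of other members. Rps27l had a median of 79.8 TPM, Rpl22l1 44.2 TPM and Rpl7l1, a relative of Rpl7 known from ribosome assembly, 23.6 TPM. The pseudogene rows Rps4l, Rps12l1 and Rps3a2 had medians of 19.2, 3.09 and 2.54 TPM. Reads of near-identical copies can be divided between rows by the counting, so the values of such rows are uncertain. The order of levels over the 84 members was similar between experiments, with a Spearman rho across genes from 0.65 (experiments 2 and 4) to 0.94 (experiments 3 and 4). Genes within a library share its scaling, so these correlations are given as a description.

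**Figure D1:**
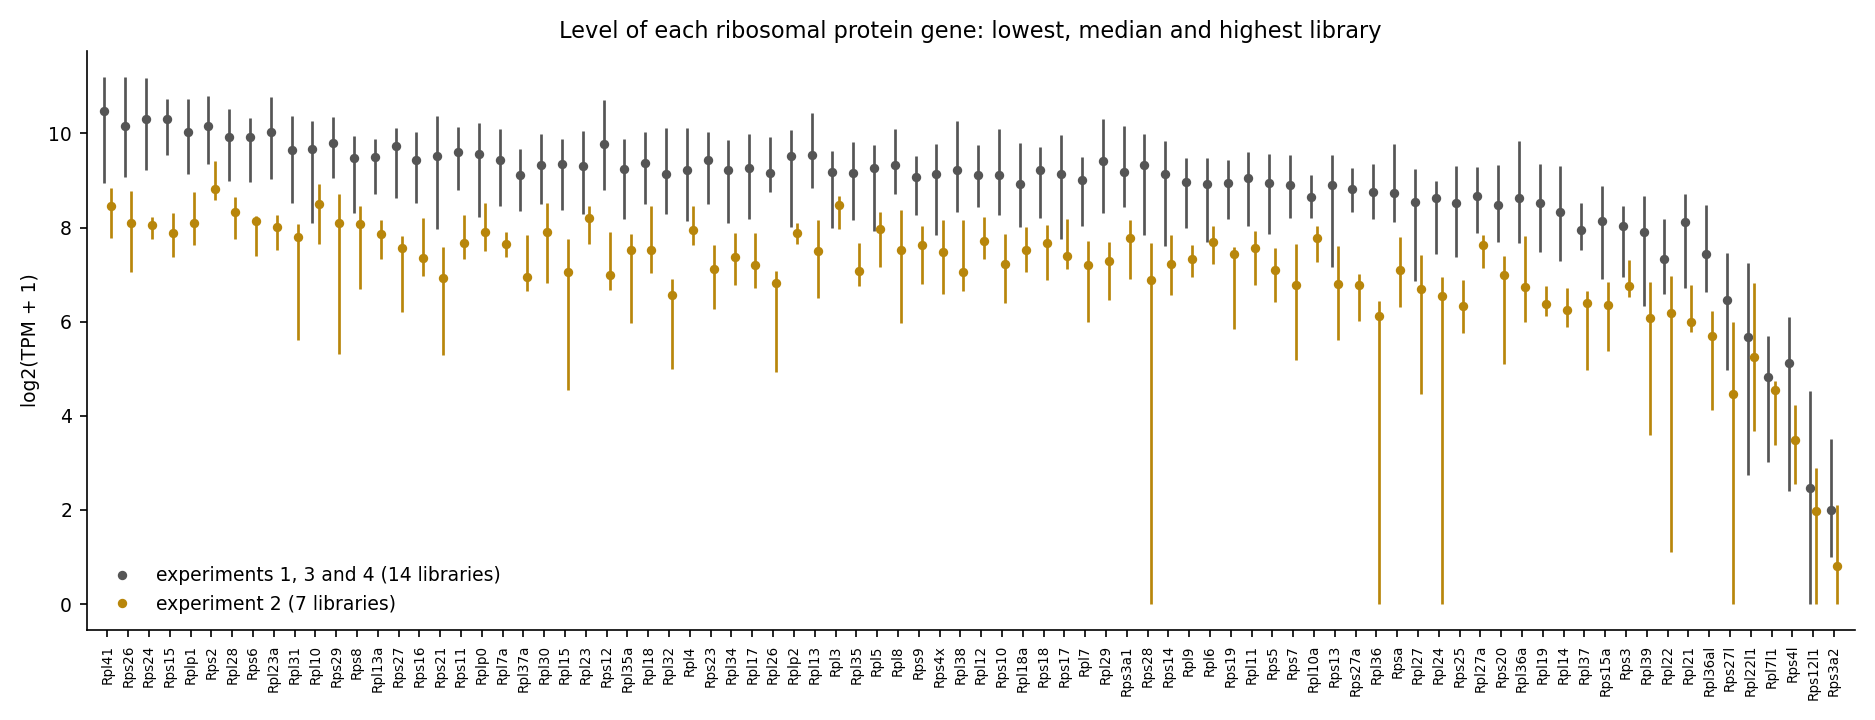
Level of the 84 ribosomal protein genes tested, in order of their median, on a log2(TPM + 1) axis; lines run from the lowest to the highest library and points mark the median, for the 14 libraries of experiments 1, 3 and 4 and the 7 of experiment 2. In 56 genes the experiment 2 line lies wholly below the other line, and Rpl36, Rps28, Rpl24 and Rps27l reach 0 in 1 experiment 2 library. The pseudogene rows Rps12l1 and Rps3a2 reach 0 in more than 1.

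The largest difference within the family was between experiments. Ribosomal protein genes together made up 1.06% to 1.81% of all TPM in the 7 libraries of experiment 2. They made up 3.45% to 5.79% in experiment 1, 4.27% to 6.94% in experiment 3 and 2.67% to 6.49% in experiment 4. The highest library of experiment 2 was thus below the lowest of the other 14, in WT and KO alike. Replicates 3a and 3b, at 1.06% and 1.24%, were both within the low group.

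Across the 4 experiments 80 of the 84 members passed limma's test at an adjusted p under 0.05, against a background of 29.1% of all genes tested. Experiment 2 was set apart because earlier results of these data gave a lower mean of the members there. Its contrast is therefore not independent support of that lower mean. Between experiment 2 and the mean of the other experiments 81 members were lower and 0 higher. The background was 6.65% of genes lower and 15% higher, and the share lower was 12.7% when libraries were shifted to a common median. The members' median difference was -1.78 on the log2(TPM + 1) scale, and the median of all genes was 0.23. In 56 of the 84 members every experiment 2 library was below every other library, a pattern found in 0.726% of all genes tested. With replicate 3a or 3b placed in experiment 4 the members lower in experiment 2 were 75 and 78, and 80 with both left out. Without experiment 2, 0 of the members passed the test between the remaining experiments. The share of all genes in that setting was not computed. With 14 libraries left, 0 calls do not show that levels were equal in experiments 1, 3 and 4. Fewer cells of a type and less RNA per cell cannot be told apart in bulk samples, and neither can experiment and whatever else was done on its libraries.

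**Figure D2:**
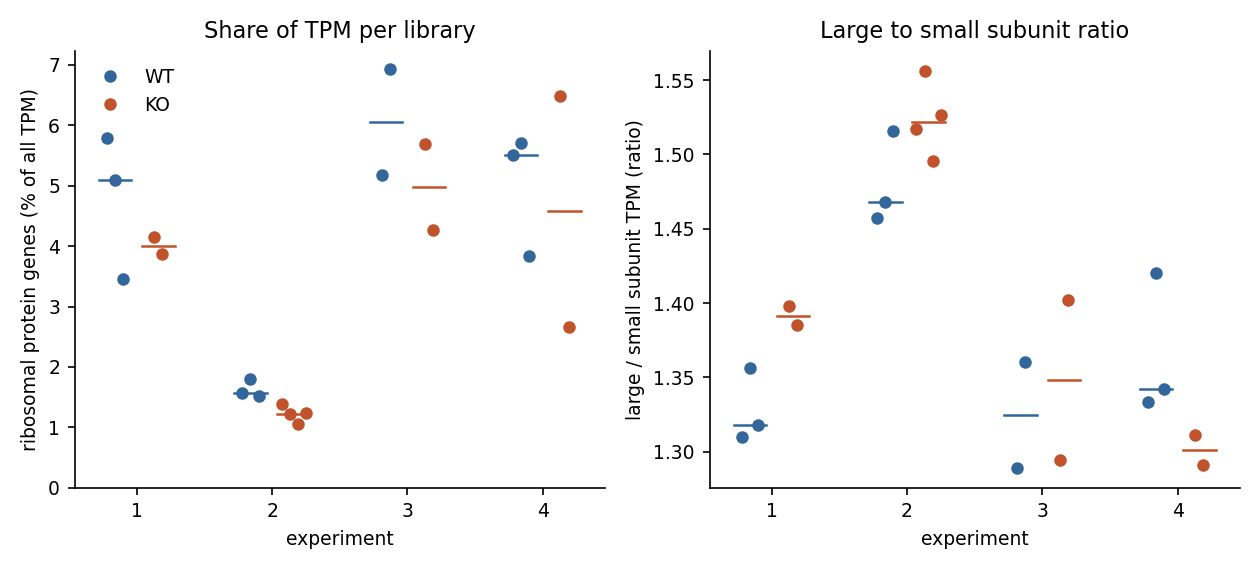
Left, percent of all TPM that falls on the 89 ribosomal protein genes; right, the summed TPM of large subunit genes divided by that of small subunit genes; each point is 1 library, by experiment and genotype, and bars are medians. All 7 experiment 2 libraries lie at or below 1.81% on the left and at or above 1.46 on the right, apart from the other 14 in both.

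The balance of the subunits also differed between experiments. The summed TPM of large subunit genes divided by that of small subunit genes ran from 1.46 to 1.56 in experiment 2 and from 1.29 to 1.42 in the other 14 libraries. The 2 ranges did not overlap. Per gene, the median difference of experiment 2 was -1.81 over 35 small subunit genes, of which 34 were lower, and -1.78 over 49 large subunit genes, of which 47 were lower. The ratio of sums gives weight to the highest genes, which the median per gene does not.

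The largest differences were those of Rpl36, Rps28, Rpl32 and Rpl24. Rpl36 of the large subunit was listed at 84.6, 68.2 and 86.0 TPM in WT of experiment 2 and at 84.6, 51.7, 0 and 58.4 TPM in KO, against 288 to 654 TPM in the other 14 libraries. Its difference was -3.37 (SE 0.57, limma adjusted p = 0.000423). The value of 0 was that of replicate 3a, without which the difference was -2.59. Rps28 of the small subunit was also listed at 0 in replicate 3a. Its other 6 values in experiment 2 ran from 89.9 to 202 TPM, and the other experiments ran from 227 to 1019 TPM. The difference of Rps28 was -3.16 (SE 0.69, limma adjusted p = 0.00301), and -2.24 without replicate 3a. Rpl24, a large subunit protein that reaches across to the small subunit, was listed at 0 in replicate 3b and at 78.4 to 122 TPM in the other experiment 2 libraries, against 171 to 507 TPM elsewhere. Its difference was -2.73 (SE 0.63, limma adjusted p = 0.00433), and -1.87 without replicate 3b. These genes kept their call without the library at 0. With replicate 3a placed in experiment 4, Rpl36 (-2.08, limma adjusted p = 0.111) and Rps28 (-1.69, limma adjusted p = 0.247) no longer passed, and with replicate 3b placed there Rpl24 (-1.39, limma adjusted p = 0.254) did not pass.

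Rpl32, Rpl26 and Rps12 showed differences of the same order with no value at 0. Rpl32 of the large subunit ran from 30.9 to 120 TPM in experiment 2, with a median of 93.8 TPM, and from 311 to 1099 TPM elsewhere, with a median of 561 TPM. Every experiment 2 library was lower, and the difference was -2.88 (SE 0.25, limma adjusted p = 2.7e-07). Rpl26, a protein at the exit tunnel, had a median of 111 TPM in experiment 2 (29.5 to 135 TPM) and 570 TPM elsewhere (433 to 964 TPM). Its difference was -2.65 (SE 0.24, limma adjusted p = 3.5e-07). Rps12 of the small subunit had a median of 126 TPM in experiment 2 (101 to 238 TPM) and 874 TPM elsewhere (446 to 1668 TPM), a difference of -2.62 (SE 0.21, limma adjusted p = 1.8e-07).

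Only 3 of the 84 members missed the threshold for experiment 2. Rpl22l1 differed by -0.29 (SE 0.38, limma adjusted p = 0.617) and Rpl7l1 by -0.39 (SE 0.29, limma adjusted p = 0.357). The third, the pseudogene row Rps12l1, differed by -0.65 (SE 0.68, limma adjusted p = 0.516), from values between 0 and 21.9 TPM. The smallest difference that passed was that of Rpl3, a protein near the catalytic centre, at -0.72 (SE 0.20, limma adjusted p = 0.0128). Rpl3 ran from 250 to 409 TPM in experiment 2 and from 252 to 792 TPM elsewhere, so the ranges overlapped.

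The structural groups of the ribosome were lower in experiment 2 throughout. In the P stalk all 4 members passed the test, with differences of -1.46 for Rplp0, the base of the stalk, -1.83 and -1.47 for the acidic proteins Rplp1 and Rplp2, and -1.35 for Rpl12 at the stalk's root. Rpl5 and Rpl11, which bind 5S ribosomal RNA and, when free, the p53 regulator Mdm2, differed by -1.22 and -1.47. Rpl5 ran from 141 to 320 TPM in experiment 2 and from 242 to 857 TPM elsewhere, and Rpl11 from 109 to 240 TPM and from 261 to 776 TPM. Their sum in experiment 2 lay at or below 513 TPM and elsewhere at or above 574 TPM.

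The 8 proteins listed for the exit tunnel all passed, with a median difference of -2.02, from -1.30 for Rpl4 to -2.65 for Rpl26. Rpl17 (-1.94), Rpl19 (-2.14), Rpl23a (-2.10), Rpl31 (-2.18), Rpl35 (-1.88) and Rpl39 (-1.88) lay between them. The 5 listed proteins of the small subunit, Rps2, Rps3, Rps9, Rpsa and Rps6, all passed, with a median of -1.46. Rps2 differed by -1.11 and Rps3, which lines the mRNA entry, by -1.13. Rps9 differed by -1.46, Rpsa, also known as the laminin receptor, by -1.74 and Rps6, the target of S6 kinase, by -1.86. Rps27a, made as a fusion with ubiquitin, differed by -2.01.

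Fau and Rack1, which the name rule leaves out, were also lower. Fau, a fusion of a ubiquitin-like protein with a ribosomal protein, ran from 82.5 to 228 TPM in experiment 2 and from 350 to 1264 TPM elsewhere, a difference of -2.33 (limma adjusted p = 6.8e-07). Rack1, a scaffold on the small subunit that the table lists under its older symbol, differed by -1.04 (limma adjusted p = 0.00335). The 258 rows named as ribosomal protein pseudogenes summed to 131 to 224 TPM in experiment 2 and to 216 to 570 TPM elsewhere.

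Other genes of the translation machinery were compared in the same fit. Among 16 translation factors known to have TOP mRNAs 9 were lower in experiment 2 and 1 was higher, with a median difference of -0.80. Eef1a1, which delivers aminoacyl-tRNA, differed by -1.14 (limma adjusted p = 0.00123) and Tpt1, a growth-related protein, by -1.43 (limma adjusted p = 0.000201). The factor that was higher was Eif4a2, an RNA helicase of initiation, at 0.97 (limma adjusted p = 0.0102). Among 77 mitochondrial ribosomal protein genes, which serve the separate ribosome of mitochondria, 28 were lower and 0 higher, with a median of -0.85. Mrpl33 differed by -1.23 (limma adjusted p = 0.00205), and Mrpl52 differed by -0.85 (limma adjusted p = 0.015).

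Lists of genes that make ribosomes had medians near 0. Of 41 assembly factors 5 were lower and 3 higher in experiment 2, with a median of -0.090. Ncl (nucleolin) differed by 0.046 (limma adjusted p = 0.909), and Nop56, of the small nucleolar particles, differed by 0.42 (limma adjusted p = 0.254). Of 14 genes of RNA polymerase I and its factors 1 was lower and 0 higher, with a median of 0.10. Ubtf, which binds ribosomal DNA, differed by 0.26 (limma adjusted p = 0.343). The 1 that was lower was Polr1d, a subunit shared with RNA polymerase III, at -0.66 (limma adjusted p = 0.0117). Of 13 genes that control TOP mRNAs 2 were lower and 3 higher, with a median of 0.32, beside 6.65% of all tested genes lower and 15% higher. The 3 that were higher were Rptor (1.13) and Mtor (0.76), which encode parts of the mTOR complex, and Tsc1 (0.99), which encodes an inhibitor of mTOR signalling. Cnbp (-0.68), which binds TOP mRNAs, and Eif4ebp1 (-0.79), an inhibitor of initiation, were the 2 lower ones.

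Transcript length varied with the size of the difference. Over the 81 members with an annotated transcript (345 to 5179 bases, median 886 bases) Spearman's rho between length and the experiment 2 difference was 0.44, and 0.49 with coding length. Over 11665 other protein-coding genes rho was 0.48. These correlations are across genes of the same libraries and have no p. Among the other protein-coding genes under 500 bases the median difference was -1.04 (72 genes), from 500 to 1000 bases -0.94 (592 genes), from 1000 to 2000 bases -0.26 (2408 genes), from 2000 to 4000 bases 0.16 (4791 genes) and above that 0.47 (3802 genes). Short genes were thus lower in experiment 2 outside the family too.

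In each length bin the median of the ribosomal protein genes was below that of the other genes. It was -2.21 under 500 bases (10 genes), -1.86 from 500 to 1000 bases (41 genes) and -1.71 from 1000 to 2000 bases (24 genes). Above 2000 bases there were only 6 members, with medians of -1.51 (5 genes) and -1.75 (1 gene). The part of transcript length in the family's difference was not tested beyond these values.

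**Figure D3:**
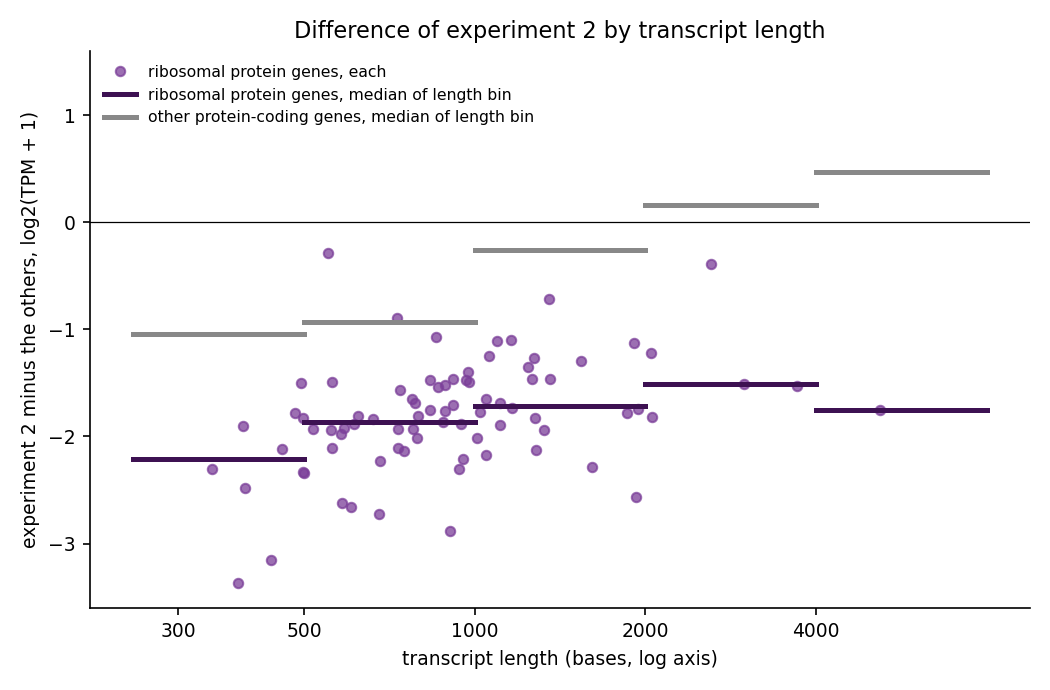
Difference of experiment 2 from the mean of the other experiments on the log2(TPM + 1) scale against transcript length on a log axis; points are ribosomal protein genes, dark bars their medians and grey bars the medians of other protein-coding genes in the same length bins. The grey bars rise from -1.04 to 0.47 with length, and the dark bars lie between -2.21 and -1.51.

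Libraries of experiment 2 also differed from the others in features outside the family. The long non-coding RNA row Gm26917 took 68670 to 358667 TPM in experiment 2 and 19760 to 80789 TPM elsewhere. The lowest of these experiment 2 values was that of replicate 3b, whose experiment is uncertain, and the next was 111327 TPM. Nuclear protein-coding genes took 44.2% to 71.5% of TPM in experiment 2 and 22.6% to 80.0% elsewhere. With TPM rescaled to nuclear protein-coding genes 81 members were still lower in experiment 2. On that base the family took 1.71% to 3.56% in experiment 2 and 4.95% to 13.3% elsewhere.

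Marker lists of cell types were compared between experiment 2 and the others in the same fit. Of 12 endothelial markers 0 were lower and 1 was higher, with a median of -0.15 and sums of 3554 to 10636 TPM in experiment 2 and 584 to 11930 TPM elsewhere. The 1 that was higher was Egfl7, a protein secreted by endothelial cells, at 1.17 (limma adjusted p = 0.0394). Of the 4 tested markers of pericytes and smooth muscle 1 was lower, with a median of -1.18, and the whole list summed to 3.53 to 57.9 TPM in experiment 2 and 20.3 to 161 TPM elsewhere. The lower one was Rgs5, a pericyte regulator of G protein signalling, at 0 to 21.3 TPM in experiment 2 and 8.63 to 95.3 TPM elsewhere, a difference of -2.47 (limma adjusted p = 0.000746). Of 8 leukocyte markers 1 was lower, with a median of -0.65 and sums of 90.7 to 234 TPM against 104 to 2857 TPM. This was Coro1a, an actin-binding protein of leukocytes, at -1.89 (limma adjusted p = 0.0159). None of the 7 macrophage markers (median 0.13) and none of the 5 tested fibroblast markers (median 0.46) was called. Macrophage markers summed to 29.2 to 232 TPM in experiment 2 and 15.9 to 4135 TPM elsewhere, and fibroblast markers to 17.6 to 386 TPM and 10.2 to 576 TPM. None of the 3 tested erythroid markers (median -0.48) was called, nor was the 1 tested tumour epithelium marker (0.86). Erythroid markers summed to 4.03 to 425 TPM in experiment 2 and 5.03 to 310 TPM elsewhere. Tumour epithelium markers summed to 0.78 to 69.4 TPM and 0 to 272 TPM. The sums of all these lists overlapped between experiment 2 and the rest, and their part in the family's difference was not tested.

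The TOP tract was looked for in the annotated starts. A tract was counted where the first base of the RefSeq transcript (GRCm38.p6) is C and at least 4 pyrimidines follow, on the transcribed strand only. Of 64 members with a RefSeq start 13 met this (20.3%), against 2.97% of 26961 other genes of the table. A start placed a few bases away hides a tract, so a missing tract says only that these letters are not at the annotated base. The 5 windows printed are those of the 3 longest tracts, of Rps6, the S6 kinase target, and of Rps15a, which is among the members with the smallest p for KO. Each shows 30 bases before the start and the first 15 bases from it, with the tract in capitals.
Rpl15: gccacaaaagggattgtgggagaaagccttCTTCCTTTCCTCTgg
Rpl35: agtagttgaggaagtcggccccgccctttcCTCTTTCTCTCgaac
Rps10: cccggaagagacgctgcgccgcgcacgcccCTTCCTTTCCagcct
Rps6: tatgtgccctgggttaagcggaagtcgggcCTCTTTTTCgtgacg
Rps15a: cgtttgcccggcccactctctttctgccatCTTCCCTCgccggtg
Rpl15 lies at chr14:18270972-18271016 (minus strand), Rpl35 at chr2:39005117-39005161 (minus), Rps10 at chr17:27635230-27635274 (minus), Rps6 at chr4:86857353-86857397 (minus) and Rps15a at chr7:118116133-118116177 (minus). The tract of Rpl15 is 13 bases long and that of Rps15a 8 bases. Members with a tract at the annotated start had a median experiment 2 difference of -1.88 (13 genes), and those without one -1.77 (48 genes). The KO difference had a median of -0.33 with and -0.34 without a tract.

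Between KO and WT no ribosomal protein gene passed the test. With an experiment term in limma, 0 of 84 members had an adjusted p under 0.05, against 0.00741% of all genes, and the smallest adjusted p was 0.82. At an unadjusted p under 0.05 there were 12 members, all lower in KO, against 4.93% of all genes. In sign 82 of the 84 members were lower in KO, where 64% of all genes were, and 56 were lower in each of the 4 experiments, where 10.9% of all genes were. The members' median difference was -0.34, and that of all genes -0.11. These genes share each library's scaling and rise and fall together, so their signs are not separate observations.

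The sets of libraries moved the count of 12. It was 0 without experiment 2 and 35 without KO replicate 1 of experiment 4. It was 21 without WT replicate 3 of experiment 1, and 6 without KO replicate 2 of experiment 4. It was 7 when any of WT replicate 1 of experiments 1, 2 or 4, WT replicate 2 or KO replicate 3a of experiment 2, or KO replicate 2 of experiment 3 was left out. It was 3 without replicates 3a and 3b and 2 without the 3 libraries lowest in Pecam1.

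By experiment the members' median difference was -0.20 in experiment 1, -0.54 in experiment 2, -0.29 in experiment 3 and -0.25 in experiment 4. The median of all genes was 0.30, -0.18, 0.08 and -0.56 in the same order. Relative to all genes the family was therefore lower in KO in experiments 1 to 3 (-0.50, -0.35 and -0.37) and higher in experiment 4 (0.31). These values rest on few libraries. By the family's share of TPM, KO libraries lay wholly below WT libraries only in experiment 2. In experiment 4 the 2 KO libraries were the highest (6.49%) and the lowest (2.67%). In experiment 3 KO replicate 1 (5.70%) was above WT replicate 1 (5.17%) and below WT replicate 2 (6.94%). The test of whether the genotype difference varied between experiments called 0 members, and 0 of all 13503 genes tested. At an unadjusted p under 0.05 there were 0 members, and 518 of the 13503 genes.

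**Figure D4:**
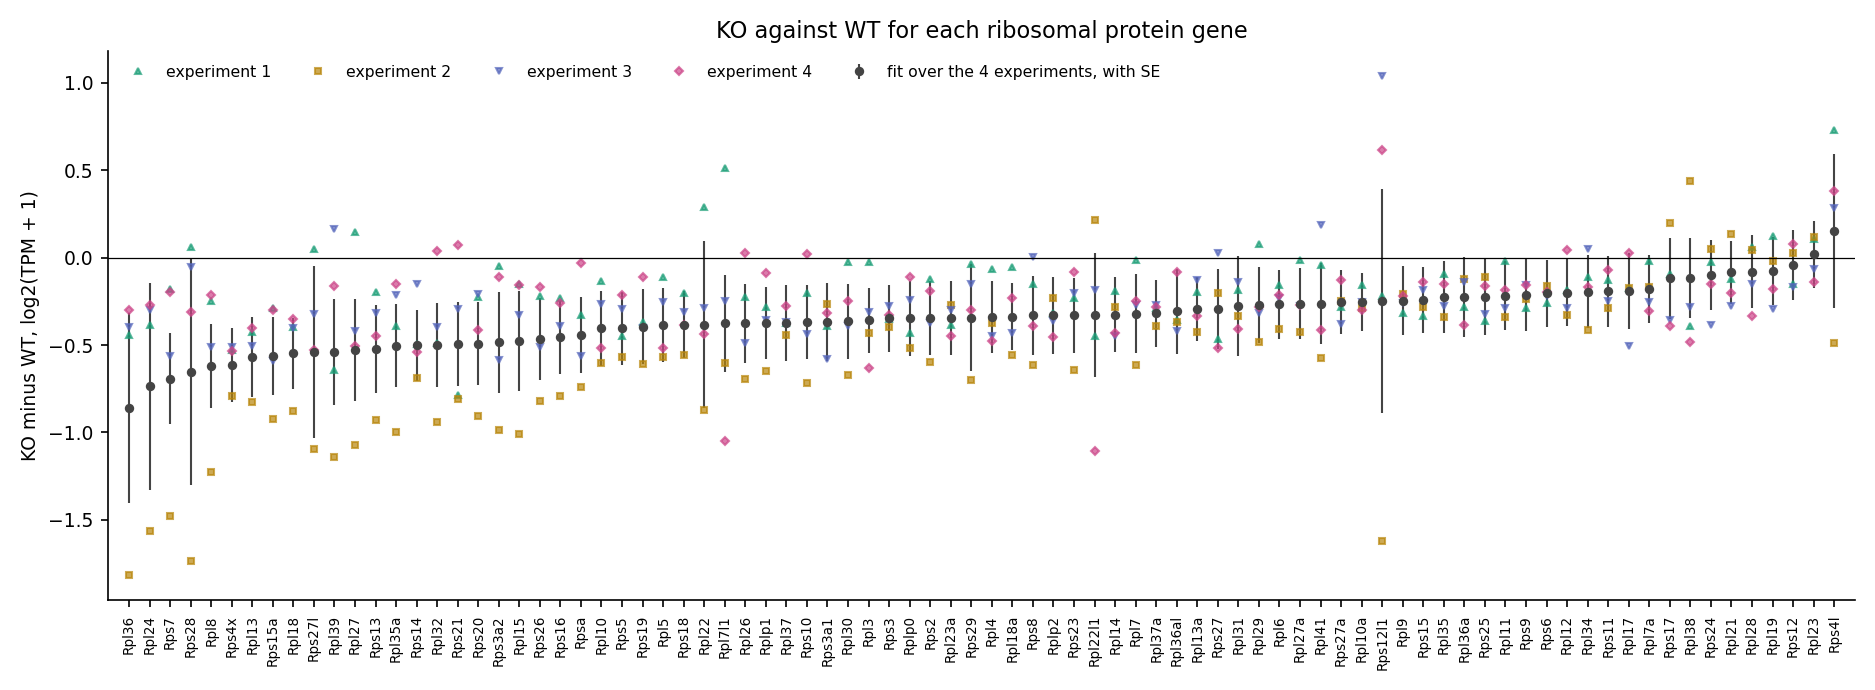
KO minus WT on the log2(TPM + 1) scale for each of the 84 ribosomal protein genes, from the fit over all experiments (dark points with SE) and within each experiment (coloured symbols). All dark points but those of Rpl23 and Rps4l lie below 0, and none passed an adjusted p of 0.05.

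Rps4x, a small subunit protein encoded on the X chromosome, had the smallest p. It ran from 229 to 880 TPM in WT, with a median of 566 TPM, and from 94.6 to 683 TPM in KO, with a median of 245 TPM. The ranges overlapped over most of their length. The difference was -0.62 (SE 0.21, unadjusted p = 0.00823, limma adjusted p = 0.82), between -0.51 and -0.79 in each experiment. In experiments 1 and 2 every KO library was below every WT library. In experiment 3 KO replicate 1 (683 TPM) was above both WT libraries (566 and 647 TPM), and KO replicate 2 was at 263 TPM. In experiment 4 the KO libraries were at 536 and 228 TPM, and the WT libraries ran from 360 to 661 TPM.

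Rpl18 of the large subunit had a median of 650 TPM in WT (227 to 1041 TPM) and 430 TPM in KO (130 to 783 TPM), a difference of -0.55 (SE 0.20, unadjusted limma p = 0.0123). Rps7, a small subunit protein that can bind Mdm2, had a median of 463 TPM in WT (146 to 746 TPM) and 329 TPM in KO (35.3 to 541 TPM). Its difference was -0.69 (SE 0.26, unadjusted limma p = 0.0135), with -1.48 in experiment 2 and -0.18 in experiment 1. Rpl8, a large subunit protein near the catalytic centre, had a median of 630 TPM in WT and 444 TPM in KO, with -1.22 in experiment 2 and -0.21 in experiment 4. The sizes of these differences thus leaned on experiment 2, in which replicates 3a and 3b were the lowest for Rps7 (41.1 and 35.3 TPM) and Rpl8 (119 and 62.1 TPM). Rps15a (-0.56) and Rpl13 (-0.57) completed the 6 with the smallest p, at unadjusted limma p values of 0.0187 and 0.0198.

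The 2 members with a higher value in KO were the pseudogene row Rps4l (0.15, SE 0.44, unadjusted limma p = 0.732) and Rpl23 of the large subunit (0.018, SE 0.19, unadjusted limma p = 0.928). Rpl23 had a median of 582 TPM in WT and 499 TPM in KO. Its sign was not stable to the choice of libraries.

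The related lists gave no call for KO either. Of 16 translation factors, 14 RNA polymerase I genes, 41 assembly factors, 13 TOP control genes and 77 mitochondrial ribosomal proteins, 0 passed the adjusted threshold. Their medians were -0.33, -0.35, -0.29, -0.17 and -0.27, and that of the family was -0.34. Marker lists of cell types gave 0 calls for KO as well. All 8 leukocyte markers and all 7 macrophage markers had lower values in KO, with medians of -1.46 and -1.48. Leukocyte markers summed to 110 to 2857 TPM in WT and to 90.7 to 285 TPM in KO, and Cd52, Cd53 and Tyrobp were at 0 in at least 1 WT library. Macrophage markers summed to 33.4 to 4135 TPM in WT and to 15.9 to 162 TPM in KO. All 5 tested fibroblast markers were also lower in value (median -1.17), with sums over the whole list of 28.7 to 576 TPM in WT and 10.2 to 153 TPM in KO. All 4 tested markers of pericytes and smooth muscle were lower in value (median -1.16), with sums of 28.7 to 161 TPM in WT and 3.53 to 118 TPM in KO. Of 12 endothelial markers 1 had a lower value in KO, the median was 0.14, and the sums were 584 to 11930 TPM in WT and 1674 to 11076 TPM in KO. Of 3 tested erythroid markers 1 had a lower value in KO, and the median was 1.26. The whole erythroid list summed to 4.03 to 310 TPM in WT and to 7.49 to 425 TPM in KO. Its highest sums were those of replicates 3a and 3b (379 and 425 TPM). The 1 tested marker of tumour epithelium was lower in value (-1.55). That list summed to 1.58 to 272 TPM in WT and to 0 to 137 TPM in KO. The sums of all these lists overlapped between genotypes. The part of these cells in the family's values was not tested. Without WT replicate 2 of experiment 3, the library highest in the leukocyte and macrophage sums, the family's median was -0.32. Without the 3 libraries lowest in Pecam1 the family's median was -0.22.

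Several ribosomal protein genes have a related row in the table, most of them a second coding gene. Of 8 such pairs, of which Rps4l with Rps4x holds a row annotated as a pseudogene, 5 had both rows above the filter, and the ratio of the copy to the main gene was compared between KO and WT by an exact permutation test, two-sided, over the 21000 arrangements of genotype within experiments. None of the 5 passed after adjustment over the 5 pairs. The coding sequences of Rps27 and Rps27l are printed to show where these copies differ. The coding sequences have the same length of 255 bases and differ at 61 positions, which are in capitals, an identity of 76.1% (GENCODE, GRCm38). Rps27 lies at chr3:90212522-90213651 (minus strand) and Rps27l, which is known as a p53 target, at chr9:66946086-66949516 (plus strand).
Rps27: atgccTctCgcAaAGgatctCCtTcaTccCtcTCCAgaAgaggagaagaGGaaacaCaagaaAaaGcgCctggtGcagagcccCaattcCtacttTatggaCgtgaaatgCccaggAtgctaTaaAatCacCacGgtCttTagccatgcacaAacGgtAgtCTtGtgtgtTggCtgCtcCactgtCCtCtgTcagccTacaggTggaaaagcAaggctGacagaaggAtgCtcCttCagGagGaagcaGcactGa
Rps27l: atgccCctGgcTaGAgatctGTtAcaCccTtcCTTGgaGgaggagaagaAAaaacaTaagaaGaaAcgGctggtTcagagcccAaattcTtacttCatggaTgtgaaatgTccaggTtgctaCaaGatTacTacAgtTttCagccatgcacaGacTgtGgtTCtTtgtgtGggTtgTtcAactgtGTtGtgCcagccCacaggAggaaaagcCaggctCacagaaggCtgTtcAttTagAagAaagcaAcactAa
Rps27l stood at 12.4% of the level of Rps27. The log2 ratio had a median of -2.95 in WT (-4.97 to -2.35) and -3.05 in KO (-6.21 to -1.84), and the genotype difference was -0.25 (exact p = 0.606, adjusted 0.98). The ratio of -6.21 was that of KO replicate 3b of experiment 2, where Rps27l was listed at 0 TPM.

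Rpl22l1, a copy of Rpl22 that is known to rise when Rpl22 is lost, stood at 35.7% of the level of Rpl22. The log2 ratio had a median of -1.27 in WT and -1.57 in KO, with a difference of 0.055 (exact p = 0.98, adjusted 0.98). In KO replicate 3a of experiment 2 Rpl22 was at 1.15 TPM and Rpl22l1 at 113 TPM, a log2 ratio of 5.72, and the next highest KO library was at -0.81. Without that library the difference was -0.56. The ratio also varied by experiment, from a median of -0.81 in experiment 1 to -2.67 in experiment 4.

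Rpl36al stood at 45.1% of Rpl36a, the highest share of the 5 copies. Its log2 ratio had a median of -1.15 in WT and -1.11 in KO, with a difference of -0.083 (exact p = 0.73, adjusted 0.98). Rpl7l1 stood at 7.0% of Rpl7, with a difference of -0.056 (exact p = 0.838, adjusted 0.98). Its ratio was highest in experiment 2, where all 7 libraries lay between -3.21 and -2.59, and the other experiments had medians from -4.65 to -3.85. The pseudogene row Rps4l stood at 5.81% of Rps4x, with a median log2 ratio of -4.08 in WT (-6.98 to -3.18) and -3.77 in KO (-4.57 to -2.61). The difference of 0.77 was the largest of the 5 (exact p = 0.113, adjusted 0.565), and the ranges overlapped.

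**Figure D5:**
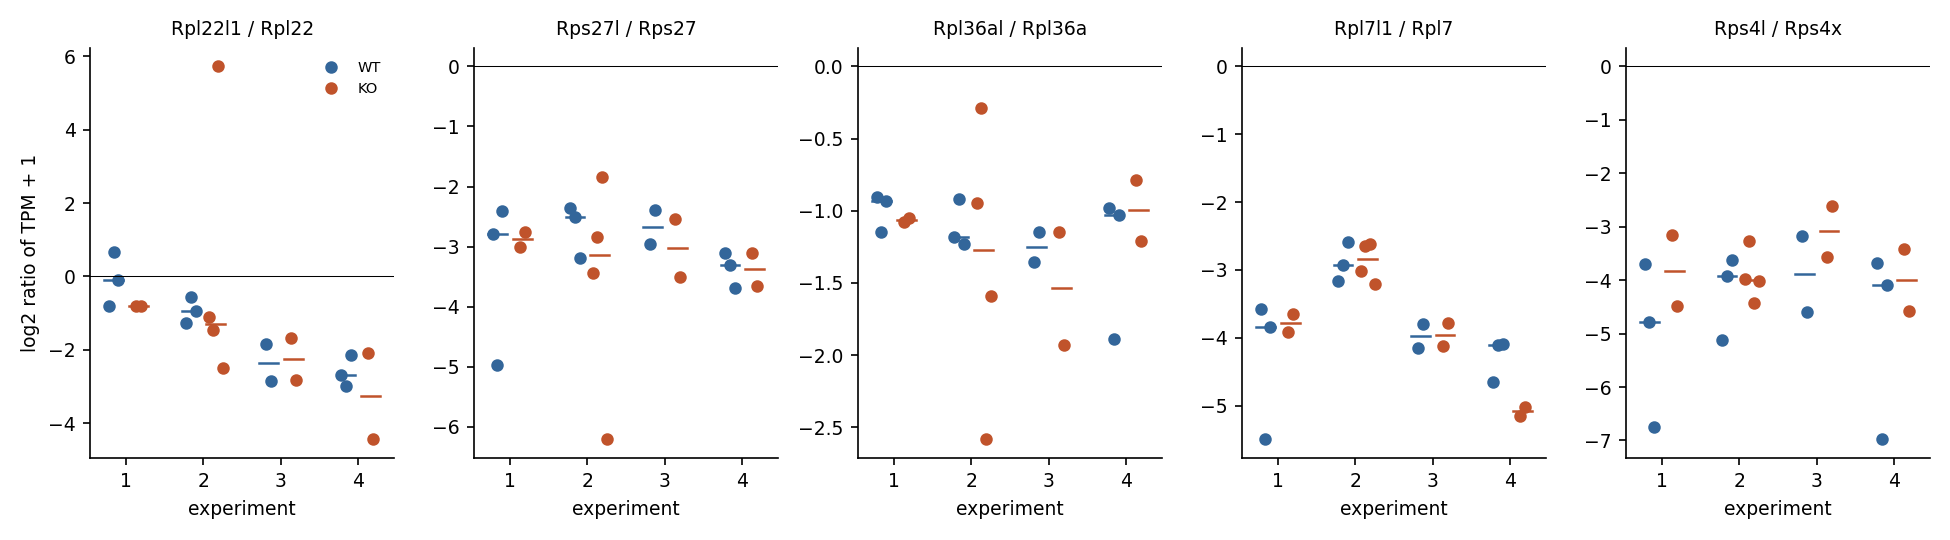
Log2 ratio of TPM + 1 of the copy to the main gene for 5 pairs, by experiment and genotype; each point is 1 library and bars are medians. KO replicate 3a of experiment 2 stands at 5.72 for Rpl22l1 against Rpl22, and for Rpl7l1 against Rpl7 the 7 experiment 2 libraries stand between -3.21 and -2.59.

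The remaining 3 pairs had a copy under the filter. Rpl39l is a copy of the exit tunnel protein Rpl39 that is known from the testis, and the 2 coding sequences of 156 bases differ at 23 positions, in capitals, an identity of 85.3%. Rpl39 lies at chrX:37082520-37085402 (minus strand) and Rpl39l at chr16:10170226-10174911 (plus strand).
Rpl39: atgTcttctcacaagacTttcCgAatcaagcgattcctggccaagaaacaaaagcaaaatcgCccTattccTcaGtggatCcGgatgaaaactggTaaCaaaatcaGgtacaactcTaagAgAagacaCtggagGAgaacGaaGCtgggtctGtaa
Rpl39l: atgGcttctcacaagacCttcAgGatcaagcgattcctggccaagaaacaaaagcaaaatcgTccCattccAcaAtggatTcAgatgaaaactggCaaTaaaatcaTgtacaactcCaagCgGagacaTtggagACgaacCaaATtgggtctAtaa
Rpl39l was at 0 in 13 of the 21 libraries, and Rpl39 had a median of 197 TPM (11.1 to 405 TPM). Rpl3l, known from striated muscle, was at 0 in 10 libraries and reached its highest value, 7.07 TPM, in KO replicate 3b of experiment 2. Rpl10l, known from the testis, was at 0 in all 21.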

How the data were processed

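Total RNA of 21 libraries was prepared from 30 ng with a stranded kit that removes ribosomal RNA, and paired reads of 150 bases were made, as the labels' protocols state. The table deposited by the authors holds TPM for 45706 Ensembl genes, a length-scaled unit written with decimal commas, whose columns all have the same sum. The submitters' processing notes name GRCm38. The aligner and counter: not given in the sources used here. Without depth no counting interval can be stated. Other values printed here, such as sums, percents and log2 differences, were computed from the deposited TPM.

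The 13503 genes that reached 1 TPM in 10 or more libraries were tested as log2(TPM + 1) with limma 3.58.1 (trend and robust options, R 4.3.3), on genotype with an experiment term, and p-values were adjusted by Benjamini and Hochberg over all of them. Differences are on that scale and understate changes of low genes. Experiment 2 was set against the mean of the other experiments in the same fit, and the interaction was tested in a second fit. The scripts were tested on simulated data. Ratios of copies were tested by exact permutation within experiments. Lengths, positions and coding sequences come from the GENCODE annotation of GRCm38 (the annotated transcript with the principal tag and longest coding part), and starts from RefSeq.

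The 2 columns that share a header, KO replicate 3 of experiment 2, were both kept there, and no column names KO replicate 3 of experiment 4. Of the gene names 27 had the form of dates and were restored from the identifiers.

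Named genes were the 6 highest and 6 lowest members by median, the 6 per direction with the smallest p for KO, the 6 largest and 3 smallest differences of experiment 2, the listed structural groups, the pairs of copies, and up to 2 genes of each related list. Eif4a2, Polr1d, Rptor, Mtor, Tsc1, Eif4ebp1, Rpl3, Egfl7, Rgs5, Coro1a, Cd52, Cd53 and Tyrobp were named after their values were seen. The members and lists were chosen with earlier results of these data known. 1 item is not reported here. Alternatives covered scaling, pseudocount, filter, variance prior, placement of the 2 columns, experiments and libraries left out, and a replicate block. Rescaling to nuclear protein-coding genes was chosen after seeing the data.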

Additional observations from a re-analysis of the deposited data

Results flagged for a closer look

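The summed level, the named members and the 5 ratios of copies were searched for a single library far from the rest. This was done within the 10 KO libraries and within the 4 KO libraries of experiment 2, and WT libraries were not searched. Of these 62 groups 4 stood out by Dixon's criterion. Chance alone gives about 1 in 20. The log2 ratio of Rpl22l1 to Rpl22 in KO replicate 3a of experiment 2 was 5.72, the highest both of all 10 KO libraries, where the next was -0.81, and of the 4 of experiment 2, where the next was -1.11. The log2 ratio of Rps27l to Rps27 was lowest in KO replicate 3b of experiment 2, at -6.21, and the next KO library was at -3.66. Rps27l was listed at 0 TPM in replicate 3b, so that ratio depends on the 1 added to each value. The pseudogene row Rps12l1 was at 21.9 TPM in KO replicate 2 of experiment 4, and the next KO library was at 10.9 TPM.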

How the results depend on the processing

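Under 39 other settings 0 ribosomal protein genes passed the test of KO against WT, the family's median ran from -0.53 (no experiment term) to -0.22 (without the 3 libraries lowest in Pecam1), and its value relative to all genes from -0.46 to -0.14. Leaving out each library in turn gave medians of -0.44 to -0.24. Between 75 and 81 members were lower in experiment 2 in the 36 settings that gave that test. The test between experiments called 74 to 81 members, but 0 among the 14 libraries left without experiment 2, which does not show equal levels. With no filter on low values, or one of at least 5 TPM, 80 members were lower in experiment 2. Replicate numbers were used as a block only as an alternative, since same-numbered libraries did not vary together in every experiment. Their correlations were 0.082 and 0.031 in experiment 1, -0.073 and 0.0015 in experiment 2 and -0.20 in experiment 3. In experiment 4 they were 0.32 and 0.36. Libraries with different numbers were not compared. With the replicate block 0 members were called, the median was -0.42 and 30 members had an unadjusted p under 0.05. The block changed no other call, and gives no test between experiments.

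Signs changed for small differences only, and the causes were not tested. For Rps4l, KO against WT was -0.024 without experiment 1 and -0.018 with the replicate block, and from -0.062 to 0.32 over libraries left out. For Rpl23 it was -0.10 with replicate 3a or 3b placed in experiment 4, -0.0089 without experiment 1, -0.032 without experiment 2, -0.072 with the replicate block and -0.10 with no experiment term, and from -0.051 to 0.099 over libraries left out. Rpl22l1 in experiment 2 was 0.0085 with replicate 3b placed in experiment 4 and 0.21 without experiment 1. Without replicates 3a and 3b the ratio of Rpl22l1 to Rpl22 was -0.44 and that of Rpl36al to Rpl36a 0.13. With replicate 3b placed in experiment 4 the ratio of Rpl7l1 to Rpl7 was 0.11. Over libraries left out one at a time the differences in ratio ran from -0.56 to 0.31 for Rpl22l1, -0.44 to 0.047 for Rps27l, -0.18 to 0.049 for Rpl36al, -0.20 to 0.027 for Rpl7l1 and 0.55 to 0.89 for Rps4l, and none passed.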
